A study of Homo sapiens with 402 samples.

Results

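The peroxisome proliferator-activated receptors and 6 of their textbook fatty acid target genes were described in MCF10A cells, an established line of human breast epithelium that does not form tumours. The 9 genes were taken by symbol from the count files: the receptors PPARA, PPARD and PPARG, and PDK4, ANGPTL4, CPT1A, PLIN2, ACADVL and HADHA. All 9 were among the 34718 symbols of sequencing run 2. The DDE libraries of run 1 listed 15081 symbols and 8 of the 9 genes, with PLIN2 not among them. Cells were exposed for 48 h to 21 chemicals at 0.025, 0.25, 2.5 and 25 µM, and lysates were taken into plexWell, a plate-based RNA-seq method with 1 barcode per well and 1 per plate. Of 402 libraries, 401 entered the tests, 332 dosed and 69 controls, nearly always 4 libraries for each chemical and dose.

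Each chemical was compared with the controls that carried its own plate barcode and labelled solvent. On the metal plate, 5 metals (arsenic, cadmium, copper, lead, mercury) shared 15 water controls. The bisphenols BPA, BPF and BPS and the parabens MPB and PPB shared 15 DMSO controls on the bisphenol plate. The perfluoroalkyl plate held PFNA, PFDA, PFOS and phenanthrene with 12 DMSO controls and PFOA with 4 water controls. Thiram shared its plate and 15 DMSO controls with DCB_14, DCP_25, PCB153 and PCB187. DDE, labelled as given in DMSO, was compared with 8 controls that shared its plate barcode but were labelled as water on the metal plate, so solvent and DDE cannot be told apart there. 1 cadmium library at 25 µM carried the barcode of another plate and was set aside, which left 2 at that dose. MPB and PPB had 3 libraries at 0.025 µM. The labels call the 4 libraries of a dose biological replicates and state that all culture rounds used the same passage, so p-values measure the spread between wells of 1 line. Other breast cells were not measured.

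The receptors are nuclear receptors that bind fatty acids and, paired with a retinoid X receptor, bind repeats of the half-site AGGTCA near their targets. PPARA is best known for fatty acid burning in liver and PPARG for fat cell formation, and PPARD is expressed in many tissues, epithelia among them. PDK4 blocks pyruvate entry into the mitochondrial acid cycle, ANGPTL4 is a secreted inhibitor of lipoprotein lipase, CPT1A loads fatty acids onto carnitine for import into mitochondria, PLIN2 coats lipid droplets, and ACADVL and HADHA are enzymes of long-chain beta-oxidation. Values are CPM, counts per M reads of the scaled library size, and a call is an adjusted p below 0.05 in edgeR's quasi-likelihood test with Benjamini-Hochberg adjustment over all genes of a comparison.

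The promoters of PDK4 and ANGPTL4, the genes called for the most chemicals, are shown with 1 promoter of PPARG. PPARG was the only receptor gene with the half-site, in some of its windows and not in others. The PPARG window shown is the one with the most half-sites. Each promoter shown runs from 250 bases before to 50 bases after a RefSeq transcription start on GRCh38.p14, on the gene's own strand. Capitals mark matches, on either strand, to AGGTCA, to the GC box GGGCGG and to TATAAA.
PDK4 promoter: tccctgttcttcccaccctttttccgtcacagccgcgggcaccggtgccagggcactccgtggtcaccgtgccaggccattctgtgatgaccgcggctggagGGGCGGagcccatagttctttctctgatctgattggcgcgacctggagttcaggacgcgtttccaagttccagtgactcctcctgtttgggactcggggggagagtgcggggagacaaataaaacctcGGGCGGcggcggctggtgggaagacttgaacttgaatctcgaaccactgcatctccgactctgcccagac
ANGPTL4 promoter: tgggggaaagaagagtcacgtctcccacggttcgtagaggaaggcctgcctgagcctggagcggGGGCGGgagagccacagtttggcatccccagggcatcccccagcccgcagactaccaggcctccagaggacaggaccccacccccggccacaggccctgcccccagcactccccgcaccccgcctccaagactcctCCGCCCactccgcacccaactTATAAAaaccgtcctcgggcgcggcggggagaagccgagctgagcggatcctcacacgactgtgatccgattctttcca
PPARG promoter: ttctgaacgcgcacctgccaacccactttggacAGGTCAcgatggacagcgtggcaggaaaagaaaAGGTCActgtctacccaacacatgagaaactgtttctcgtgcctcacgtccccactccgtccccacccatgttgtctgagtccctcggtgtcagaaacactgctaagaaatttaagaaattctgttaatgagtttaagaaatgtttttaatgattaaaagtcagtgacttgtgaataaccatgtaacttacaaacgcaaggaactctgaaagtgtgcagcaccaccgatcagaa
The windows lie at chr7:95596467-95596766 on the minus strand for PDK4, chr19:8363905-8364204 on the plus strand for ANGPTL4 and chr3:12287118-12287417 on the plus strand for PPARG. PDK4 had 2 GC boxes and no half-site, ANGPTL4 had 2 GC boxes and 1 TATAAA, and the PPARG window had 2 half-sites. Among 35116 RefSeq promoter windows of the same length, 13.8% held AGGTCA, 45% held GGGCGG and 11.5% held TATAAA. A direct repeat of AGGTCA with 1 base between its copies was in 0.0228% of all windows and in none of those of the 9 genes. A match is a description of letters only.

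On GRCh38 (GENCODE v29) the receptor genes lie at chr22:46150521-46243756 (PPARA), chr6:35342558-35428191 (PPARD) and chr3:12287368-12434356 (PPARG). The target genes lie at chr7:95583499-95596491 (PDK4), chr19:8363289-8374373 (ANGPTL4), chr11:68754620-68844410 (CPT1A), chr9:19108375-19149290 (PLIN2), chr17:7217125-7225273 (ACADVL) and chr2:26190635-26244726 (HADHA). Counts cover whole genes, so no exon or transcript is told apart.

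In control cells the 9 genes differed widely in level. Per kilobase of merged exon sequence, ANGPTL4 was highest, at 157 to 357 CPM per kb over the 6 control groups. HADHA followed at 66.1 to 75.7 and ACADVL at 57 to 110, and these ranges overlapped each other. PDK4 had 3.67 to 18 CPM per kb, PPARD 3.50 to 7.85, CPT1A 3.17 to 6.51 and PPARG 3.45 to 4.70, 4 overlapping ranges. PPARA was lower, at 0.504 to 1.58 CPM per kb. ANGPTL4 shares exon bases with RAB11B-AS1 and ACADVL with DLG4, both on the opposite strand. How the counting treated strand is not given in the sources used here, so their reads could not be told apart from those of the partner.

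PLIN2 was too low to judge. It was listed at 0 in 341 of 378 run 2 libraries, reached 10 counts in 10 of them and 41 counts at most. It passed the filter on low counts only on the metal plate, and there only through dosed groups, since the 15 water controls held 4 counts of PLIN2 in 1 library and 0 in the others. The other 8 genes passed the filter on all 5 plates. In the cadmium group at 25 µM, 5 of these 8 were also thin: PPARA had 11 and 15 counts, PPARD 11 and 61, PPARG 3 and 11, PDK4 0 and 15, and CPT1A 8 and 14.

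Library totals ranged from 1.43 to 25.8 M reads. The 2 cadmium libraries at 25 µM had 1.43 and 1.45 M, against a median of 12.6 M in their controls, and the 4 thiram libraries at 25 µM had 2.46 to 6.29 M against a median of 15.1 M. Lower numbered libraries (dosed 1 and 2, first 8 control numbers of a plate) and higher numbered ones (dosed 3 and 4, last 8 control numbers) differed in depth. The control medians were 20.9 against 3.17 M on the metal plate and 17.9 against 3.18 M on the thiram plate. All 6 markers of basal mammary epithelium (KRT5, KRT14, KRT6A, KRT17, TP63, CDH1) were listed, with 1672 to 10795 summed CPM in controls, and 4 luminal markers summed to 628 to 1220 CPM. Adipocyte markers summed to at most 4.53 CPM in controls, hepatocyte markers to at most 2.51 and immune and endothelial markers to at most 10.6. Fibroblast markers summed to 13.9 to 144 CPM. In a culture of 1 line, fewer cells and less RNA per cell cannot be told apart.

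Among 168 pairs of gene and chemical tested at 25 µM, PLIN2 left aside, 17 were called, 8 higher and 9 lower, against a background of 4.85% of all gene and chemical pairs (2.61% higher, 2.24% lower). They fell on 7 chemicals: arsenic 6, thiram 4, cadmium 3, and copper, DDE, lead and MPB 1 each. PLIN2, tested for the 5 metals only, was also called for arsenic and cadmium, where it had passed the filter through the dosed libraries, so these calls are not counted here; the total with them was 19 of 173. At 2.5 µM 4 pairs were called (background 0.412%), at 0.25 µM 1 (0.0748%) and at 0.025 µM 0 (0.0104%). Without adjustment, 26 of 173 pairs at 0.025 µM, PLIN2 included, had p below 0.05, and DESeq2 called 1. The share of all genes at that unadjusted p is not given here, so the 26 are not read as a result. Along the 4 doses, 7 of the 168 pairs had a called trend, 4 rising and 3 falling, against 3.12% of all pairs. PDK4 was called lower for 4 chemicals at 25 µM and higher for none. ANGPTL4 was called higher for 2 and lower for 3. With PLIN2, the call count at 25 µM was 11 in place of 19 without replicate 2 of each dosed group.

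**Figure D1:**
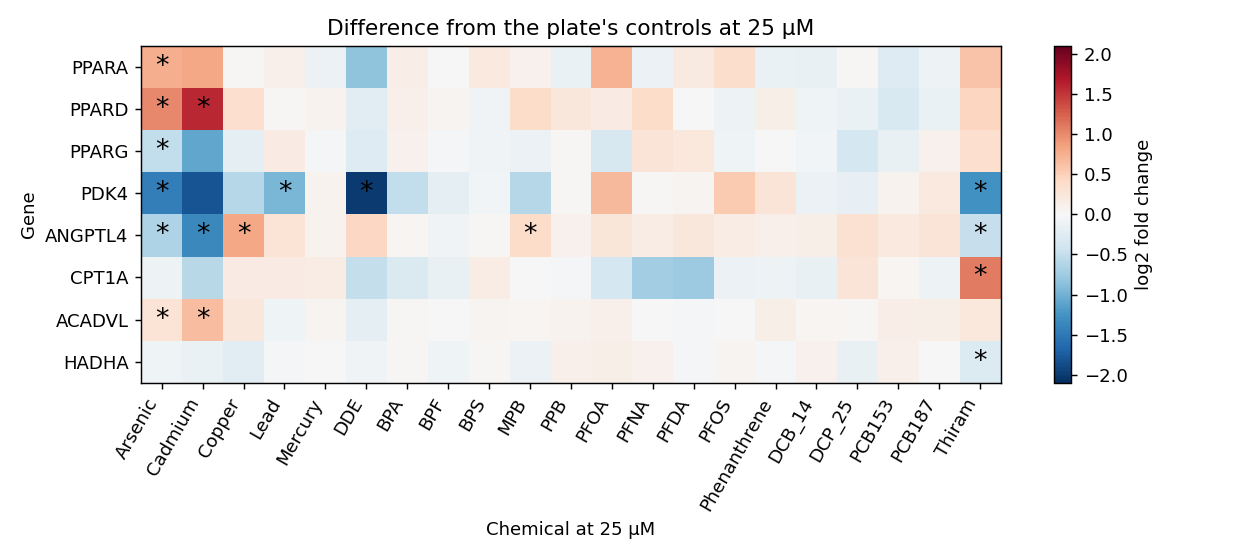
Log2 fold change of 8 genes (rows) against the plate's controls for each of 21 chemicals at 25 µM (columns), with red higher and blue lower; a star marks an adjusted p below 0.05 in edgeR's quasi-likelihood test. PDK4 and ANGPTL4 hold 9 of the 17 stars shown, and arsenic, cadmium and thiram hold 13 of them; PLIN2 is left out as too low to judge.

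Arsenic at 25 µM moved the receptors in different directions. PPARA rose: its values were 15, 22.4, 15.2 and 14.1 CPM, against a lowest, median and highest of 2.21, 8.62 and 16 CPM in the 15 water controls. 1 of the 4 arsenic libraries lay above all controls. The difference was 0.76 ± 0.21 on the log2 scale (SE, adjusted p = 0.00173), and it was 0.60 without replicate 2 (adjusted p = 0.0580) and 0.83 within the higher numbered libraries (adjusted p = 0.0908). PLIN2 aside, 6 of the 8 genes were called for arsenic, in a comparison where 41.4% of all genes were.

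PPARD rose with 25 µM arsenic to 22.4, 18.7, 49.6 and 38.5 CPM, from 10.9, 15.3 and 21.5 CPM (lowest, median, highest) in controls. 3 of the 4 libraries lay above all controls, and the higher numbered pair was the highest. PPARD differed by 1.01 ± 0.17 on the log2 scale (adjusted p = 5.10e-07). Within the lower numbered libraries alone PPARD differed by 0.36 (adjusted p = 0.252), and within the higher numbered ones by 1.69 (adjusted p = 3.57e-08).

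PPARG fell under 25 µM arsenic, to 12.1, 11.4, 17.3 and 14.6 CPM from 13.3, 20.4 and 33.4 CPM (lowest, median, highest) in controls. The groups overlapped, and the log2 difference was -0.52 ± 0.17 (adjusted p = 0.0105). This call was lost in 6 of 12 alternatives, with PPARG lower in each of them. They included RLE scaling, where the difference was -0.38 (adjusted p = 0.0749), no filter on low counts (-0.48, adjusted p = 0.0558) and the higher numbered libraries alone (-0.44, adjusted p = 0.290). It was also lost without replicate 1 (-0.46, adjusted p = 0.0811) or replicate 2 (-0.44, adjusted p = 0.0795). RLE scaling shifted the median of all genes for arsenic from 0.00 to 0.14 on the log2 scale.

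PDK4 fell at 25 µM arsenic to 7.61, 13.2, 8.58 and 19.4 CPM, all below the 22.7 CPM of the lowest water control (median 36.2, highest 61.4). This was a log2 difference of -1.46 ± 0.32 (adjusted p = 9.08e-05), and the call held under all 12 alternatives, with values from -1.79 to -1.11. PDK4 was already lower at smaller doses. Its means were 21.1, 15.5 and 15.7 CPM at 0.025, 0.25 and 2.5 µM, against 35.8 ± 10.7 CPM (SD, n = 15) in controls. Only the 2.5 µM difference among these was called (-0.99 ± 0.29, adjusted p = 0.0472), in a comparison with 1.96% of all genes called. The trend along the doses was not called (-0.20 ± 0.12 per 10-fold dose, adjusted p = 0.250).

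ANGPTL4 differed from controls in opposite directions at 2 arsenic doses. At 2.5 µM it was 477, 435, 612 and 892 CPM, and at 25 µM it was 240, 219, 238 and 294 CPM. Controls were 336, 390 and 528 CPM (lowest, median, highest). All 4 libraries at 25 µM lay below all controls, and at 2.5 µM the higher numbered 2 lay above all controls. The log2 difference was 0.64 ± 0.18 at 2.5 µM (adjusted p = 0.0336) and -0.64 ± 0.19 at 25 µM (adjusted p = 0.00433). The call at 25 µM held under all 12 alternatives, from -0.70 to -0.51, and the trend fell by 0.33 ± 0.07 per 10-fold dose (adjusted p = 0.000143; 29.7% of all genes had a called arsenic trend). PPARA and PPARD had called slopes of 0.26 ± 0.08 and 0.26 ± 0.07 per 10-fold arsenic dose (adjusted p = 0.00794 and 0.00128). Neither was called below 25 µM. With the replicate number as a block and fewer controls, PPARA differed by -0.23, 0.10, -0.32 and 0.82 from the lowest to the highest dose. PPARD differed by 0.11, 0.01, 0.08 and 0.98, so a steady rise over the doses was not seen for either. ANGPTL4 differed by 0.49, 0.66, 0.67 and -0.54 in that fit, each called there, so a steady fall was not seen for it. Without the block ANGPTL4 was not called at 0.025 or 0.25 µM.

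The mitochondrial members moved less with 25 µM arsenic. ACADVL was 361, 373, 313 and 317 CPM, against 224, 282 and 320 CPM (lowest, median, highest) in controls. That log2 difference of 0.29 ± 0.08 was called (adjusted p = 0.00180). ACADVL also differed by number set within those controls, 298 ± 15.9 CPM (SD, n = 8) in lower and 253 ± 26.1 (SD, n = 7) in higher numbered ones. HADHA was 282, 273, 292 and 303 CPM and CPT1A was 19, 19.9, 31.1 and 13.8 CPM, neither called. PLIN2 had 26, 38, 14 and 41 counts, or 2.79, 4.55, 1.82 and 3.27 CPM, against the 4 counts in all 15 controls. PLIN2 passed the filter only through dosed groups, so its place above all controls in the 4 arsenic libraries is not read as a result. The fitted fold depends on the prior count, and DESeq2 gave PLIN2 an adjusted p of 0.147. The basal markers summed to 1360 to 1980 CPM at 25 µM arsenic and 3190 to 3820 CPM in its controls, and the adipocyte markers to 1.99 to 2.79 against 0 to 4.53 CPM. The luminal markers summed to 748 to 824 against 811 to 1140 CPM and the fibroblast markers to 11.1 to 46.2 against 21.6 to 144 CPM. Their part in these differences was not tested.

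**Figure D2:**
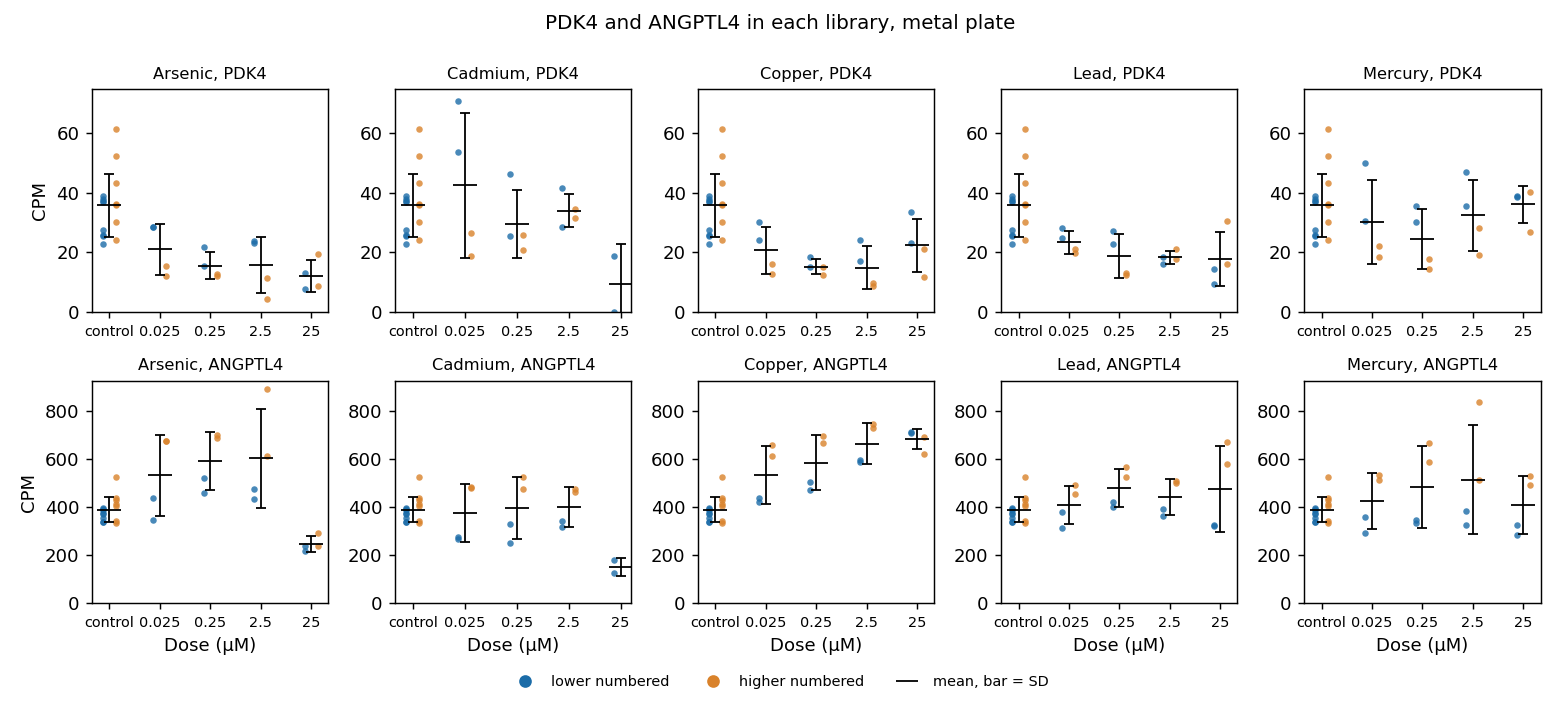
PDK4 (top) and ANGPTL4 (bottom) in CPM for each library of the metal plate, by dose in µM; blue points are lower and orange points higher numbered libraries, and the black line and bar are the mean and SD. PDK4 sits below the controls' mean of 35.8 CPM at every arsenic, copper and lead dose, and copper at 25 µM has the 4 ANGPTL4 values from 621 to 713 CPM above all controls.

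Copper raised ANGPTL4. At 25 µM it was 713, 710, 621 and 691 CPM, all above the highest water control at 528 CPM. The log2 difference was 0.82 ± 0.17 (adjusted p = 0.000595), or 1.77-fold, and held under all 12 alternatives (0.69 to 0.94). It was the 1 call among the 9 genes, where 5.09% of all genes were called. At 2.5 µM ANGPTL4 was 598, 587, 728 and 747 CPM, again above all controls, with a log2 difference of 0.78 ± 0.17 (adjusted p = 0.00222; 3% of all genes called). The means at 0.025 and 0.25 µM were 534 and 586 CPM and were not called. Numbers paired the dosed copper libraries, and whether they pair the controls was not tested. With the replicate number as a block, ANGPTL4 was called at these doses too, at 0.49 (adjusted p = 0.00169) and 0.64 (adjusted p = 5.21e-06). That fit held only the water controls that shared a number with dosed libraries, all of them lower numbered. The trend missed the threshold at 0.13 ± 0.07 per 10-fold dose (adjusted p = 0.580), and with the block it was called at 0.15 ± 0.03 (adjusted p = 0.000595). At 25 µM copper the basal markers summed to 4370 to 8740 CPM, above the 3190 to 3820 CPM of the controls, and the luminal markers to 717 to 796 against 811 to 1140 CPM. The fibroblast markers summed to 23.5 to 132 against 21.6 to 144 CPM. Their part in the ANGPTL4 difference was not tested.

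PDK4 was called lower at 0.25 and 2.5 µM copper. It was 15, 18.4, 12.4 and 15 CPM at 0.25 µM, all below the lowest control at 22.7 CPM, with a log2 difference of -1.19 ± 0.28 (adjusted p = 0.0409; 0.156% of all genes called). At 2.5 µM it was 24.1, 17.2, 8.78 and 9.65 CPM, with -1.24 ± 0.28 (adjusted p = 0.00235). At 25 µM it was 33.5, 23.2, 21.1 and 11.6 CPM, with -0.60 ± 0.26 (adjusted p = 0.206). Whether the doses differ from each other was tested only as a trend (0.04 ± 0.10 per 10-fold dose, adjusted p = 1). The 0.25 µM call was lost without replicate 2, 3 or 4. With the block ACADVL was also called at 2.5 µM, at -0.30 (adjusted p = 0.0110). Within the higher numbered libraries alone, PDK4 was called lower at all 4 copper doses, at -1.37 to -2.24. There 1.8% of all genes were called at 25 µM, and the share at the lower doses is not given here. Within the lower numbered ones it was not called at 25 µM, at 33.5 and 23.2 CPM against a control mean of 31.6 CPM. With the block PDK4 differed by -0.53, -0.90, -1.01 and -0.37 from the lowest to the highest dose, called at 0.25 and 2.5 µM.

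Lead at 25 µM had PDK4 at 14.3, 9.51, 30.5 and 16.3 CPM. 3 of these lay below all water controls. The log2 difference of -0.96 ± 0.27 (adjusted p = 0.0229) was the 1 call among the 9 genes, where 3.85% of all genes were called, and it was -0.77 without replicate 2 (adjusted p = 0.179). It was also lost without replicate 1 (adjusted p = 0.0843) or replicate 4 (adjusted p = 0.0685). The means at 0.025, 0.25 and 2.5 µM were 23.4, 18.8 and 18.3 CPM, none called. ANGPTL4 was 326, 322, 578 and 673 CPM at 25 µM lead, with the lower numbered libraries below and the higher numbered ones above all 15 controls, and was not called. Within the higher numbered libraries alone it was called (0.61, adjusted p = 0.000256), and within the lower numbered ones it differed by -0.19 (adjusted p = 0.203). Numbers paired the dosed lead libraries too. With the block and its reduced set of controls, ACADVL was called lower at 25 µM (-0.26 ± 0.09, adjusted p = 0.0490) and ANGPTL4 higher at 0.25 µM (0.36, adjusted p = 0.0422). The basal markers summed to 2920 to 4590 CPM and the luminal ones to 755 to 864 CPM at 25 µM lead, and their part was not tested. Mercury had no call without the block, and with it ANGPTL4 was called at 2.5 µM (0.42, adjusted p = 0.0236). At 25 µM mercury PDK4 was 36.3 CPM on average, with a log2 difference of 0.08 ± 0.25, and ANGPTL4 was 409 CPM, with 0.08 ± 0.18. The metals share their 15 controls, so these comparisons are not independent of each other.

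Cadmium at 25 µM rested on 2 libraries. ANGPTL4 was 126 and 179 CPM, from 100 and 128 counts, both below the lowest control at 336 CPM (log2 difference -1.36 ± 0.39, adjusted p = 0.0120), and -1.11 without replicate 1 (adjusted p = 0.273). ACADVL was 421 and 455 CPM, both above the highest control at 320 CPM (0.65 ± 0.13, adjusted p = 0.000201), and the difference was 0.59 without replicate 2 (adjusted p = 0.0647). PPARD was 13.8 and 85.4 CPM, 1 inside and 1 above the control range, and its call (1.58 ± 0.51, adjusted p = 0.0263) became -0.22 without replicate 2. PLIN2 had 0 and 16 counts. PLIN2 aside, 3 of the 8 genes were called, against 11% of all genes. The basal markers summed to 4470 to 4950 CPM, against 3190 to 3820 CPM in controls, and their part was not tested. The median gene differed by -1.42 in this fit and by 0.07 in DESeq2, and under DESeq2 ANGPTL4 differed by -1.19, ACADVL by 0.82 and PPARD by 1.83, all called. With the set-aside library added, ANGPTL4 differed by -0.11, ACADVL by 0.32 and PPARD by 0.81, none called. That library's well barcode was that of a control on the other plates of its run, and whether its cadmium label is right was not tested. Slopes per 10-fold cadmium dose were -0.40 ± 0.13 for ANGPTL4 and 0.21 ± 0.05 for ACADVL, where 8.96% of all genes had a called trend. Both slopes include the same 2 libraries at 25 µM. With the replicate block and fewer controls, ANGPTL4 differed by -0.01, 0.06 and 0.09 at 0.025, 0.25 and 2.5 µM. ACADVL differed by -0.20, -0.10 and -0.08 there. At 0.025 to 2.5 µM none of the 9 genes was called for cadmium.

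Thiram, a dithiocarbamate fungicide, was called for 4 of 8 genes tested at 25 µM, where 25.9% of all genes were called. CPT1A rose to 48.6, 37.8, 56.7 and 32.3 CPM, from 13.5, 21.2 and 51.6 CPM (lowest, median, highest) in 15 DMSO controls. 1 thiram library lay above all controls, and 13.5 to 51.6 CPM covered the others. The log2 difference was 1.10 ± 0.26 (adjusted p = 0.000495), or 2.14-fold, with a trend of 0.25 ± 0.09 per 10-fold dose (adjusted p = 0.0484; 18.5% of all genes had a called thiram trend). Within the higher numbered libraries it was 0.75 (adjusted p = 0.127).

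ANGPTL4 under 25 µM thiram split by number set. It was 771 and 711 CPM in the lower numbered libraries and 201 and 211 CPM in the higher numbered ones, against 520, 678 and 827 CPM (lowest, median, highest) in controls. The first pair lay inside the control range and the second far below it. The log2 difference over all 4 was -0.49 ± 0.14 (adjusted p = 0.00600). Within the lower numbered libraries it was 0.00 (adjusted p = 1), and within the higher numbered ones -1.63 (adjusted p = 7.87e-20). Without replicate 3 or 4 the call was lost, at -0.25 (adjusted p = 0.163) and -0.31 (adjusted p = 0.159). The lower 3 thiram doses had means of 823, 922 and 818 CPM, above the controls' 684 CPM and not called.

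PDK4 was 12.7, 7.38, 6.89 and 0 CPM at 25 µM thiram, from 78, 42, 35 and 0 counts, against 8.15, 18.7 and 32.7 CPM (lowest, median, highest) in controls. 3 libraries lay below all controls. The log2 difference was -1.26 ± 0.46 (adjusted p = 0.0290), and it lost its call without replicate 2 (-1.23), 3 (-1.22) or 4 (-1.09), with adjusted p of 0.0805, 0.0666 and 0.0662. HADHA was 221, 282, 209 and 245 CPM against 231, 295 and 337 CPM in controls, with overlap. Its difference of -0.29 ± 0.08 (adjusted p = 0.00337) was lost without replicate 3 (adjusted p = 0.0583), within the lower or the higher numbered set (adjusted p = 0.0865 and 0.0590) and with thiram and its controls fitted alone (adjusted p = 0.0532). The median gene differed by -0.11 for thiram, and by -0.02 under RLE scaling. The fibroblast markers summed to 4.14 to 27.1 CPM at 25 µM thiram and to 29.4 to 77.6 CPM in its controls, the basal markers to 2280 to 3170 against 2210 to 3420 CPM and the luminal markers to 499 to 879 against 678 to 1020 CPM. Their part was not tested.

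**Figure D3:**
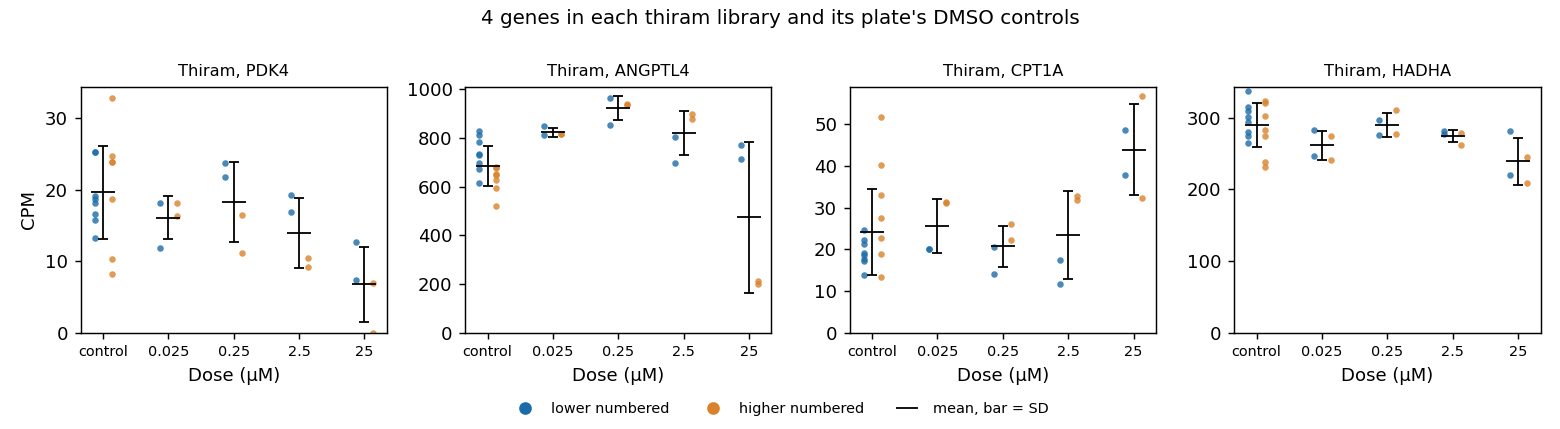
PDK4, ANGPTL4, CPT1A and HADHA in CPM for each thiram library and the DMSO controls of its plate, by dose in µM; blue points are lower and orange points higher numbered libraries, and the black line and bar are the mean and SD. At 25 µM the 2 higher numbered libraries hold ANGPTL4 at 201 and 211 CPM while the lower numbered ones hold 771 and 711 CPM.

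DDE at 25 µM had PDK4 at 38, 16.8, 12.9 and 9.95 CPM. All 4 lay below the 8 same-barcode controls, whose lowest, median and highest values were 46.5, 79.0 and 137 CPM. The log2 difference was -2.01 ± 0.41 (adjusted p = 0.0211), the 1 call among 8 genes, where 7.77% of all genes were called. It was lost without library 2 or 3 of each dose (adjusted p = 0.13 and 0.149), at -1.94 and -1.86. ANGPTL4 was 1263, 1210, 1142 and 1162 CPM against at most 1144 CPM in controls, with 0.43 (adjusted p = 0.163). PDK4 means at 0.025, 0.25 and 2.5 µM were 34.5, 27.3 and 27.5 CPM, and the trend along the doses was not called (-0.24 ± 0.15, adjusted p = 1). With a term for the libraries numbered 1, 8, 9 or 16, PDK4 was called at all 4 doses, from -1.33 at 0.025 µM to -2.13 at 25 µM. PPARA, CPT1A and ANGPTL4 were then also called at 25 µM, at -0.88, -0.51 and 0.46, and 25% of all genes were. The basal markers summed to 4910 to 8590 CPM at 25 µM DDE and 7330 to 10800 CPM in its controls, and their part was not tested.

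MPB at 25 µM had ANGPTL4 at 1209, 939, 919 and 1002 CPM, against 629, 738 and 942 CPM (lowest, median, highest) in 15 DMSO controls. 2 of the 4 lay above all controls. The log2 difference of 0.38 ± 0.08 (adjusted p = 0.00328) was the 1 call among 8 genes, where 1.38% of all genes were called. It was 0.64 within the lower numbered libraries and 0.13 within the higher numbered ones (adjusted p = 1.24e-16 and 0.941), and 0.29 without replicate 1 (adjusted p = 0.250). ANGPTL4 in the controls of that plate also differed by number set, 696 ± 42.9 CPM (SD, n = 8) in lower and 882 ± 70.8 CPM (SD, n = 7) in higher numbered libraries.

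The perfluoroalkyl acids are of interest here because this class is known to bind peroxisome proliferator-activated receptors. None of 32 pairs of gene and chemical was called at 25 µM, against a background of 0.0347%. Without adjustment 8 of the 32 had p below 0.05, and DESeq2 also called 0. The share of all genes at that unadjusted p is not given here, so the 8 are not read as a result. PFOA had PDK4 at 18.3, 20.9, 28.3 and 39.4 CPM, all above its 4 water controls at 14.9 to 17.6 CPM, with a log2 difference of 0.68 (95% interval 0.25 to 1.11, adjusted p = 0.436). PFOS had PDK4 at 16.8, 25.1, 36.4 and 29.4 CPM against 13.6 to 30.6 CPM in 12 DMSO controls, with 0.55 (0.20 to 0.90, adjusted p = 0.401). PFNA and PFDA had 0.02 (-0.33 to 0.38) and 0.05 (-0.30 to 0.41). These intervals exclude a doubling of PDK4 for PFNA, PFDA and PFOS and not for PFOA.

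For ANGPTL4 the 25 µM differences were 0.25 for PFOA, 0.16 for PFNA, 0.23 for PFDA and 0.16 for PFOS, with 95% intervals reaching at most 0.46. Within the higher numbered libraries alone PFDA was called, at 0.28 (adjusted p = 0.00785). CPT1A was lower on average in PFNA (13.9, 17.5, 22.8 and 23.4 CPM) and PFDA (13.8, 12.2, 24.5 and 23.1 CPM) than in DMSO controls, whose lowest, median and highest values were 16.3, 28.1 and 56 CPM. The groups overlapped. The log2 differences were -0.72 (-1.23 to -0.21, adjusted p = 0.262) and -0.77 (-1.27 to -0.26, adjusted p = 0.238). Within the lower numbered libraries alone both CPT1A differences were called, at -1.09 (adjusted p = 0.0233) and -1.35 (adjusted p = 0.0125). Both were called too with no filter on low counts, the 2 perfluoroalkyl calls of that setting. PPARA differed by 0.73 in PFOA (0.23 to 1.23, adjusted p = 0.488).

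**Figure D4:**
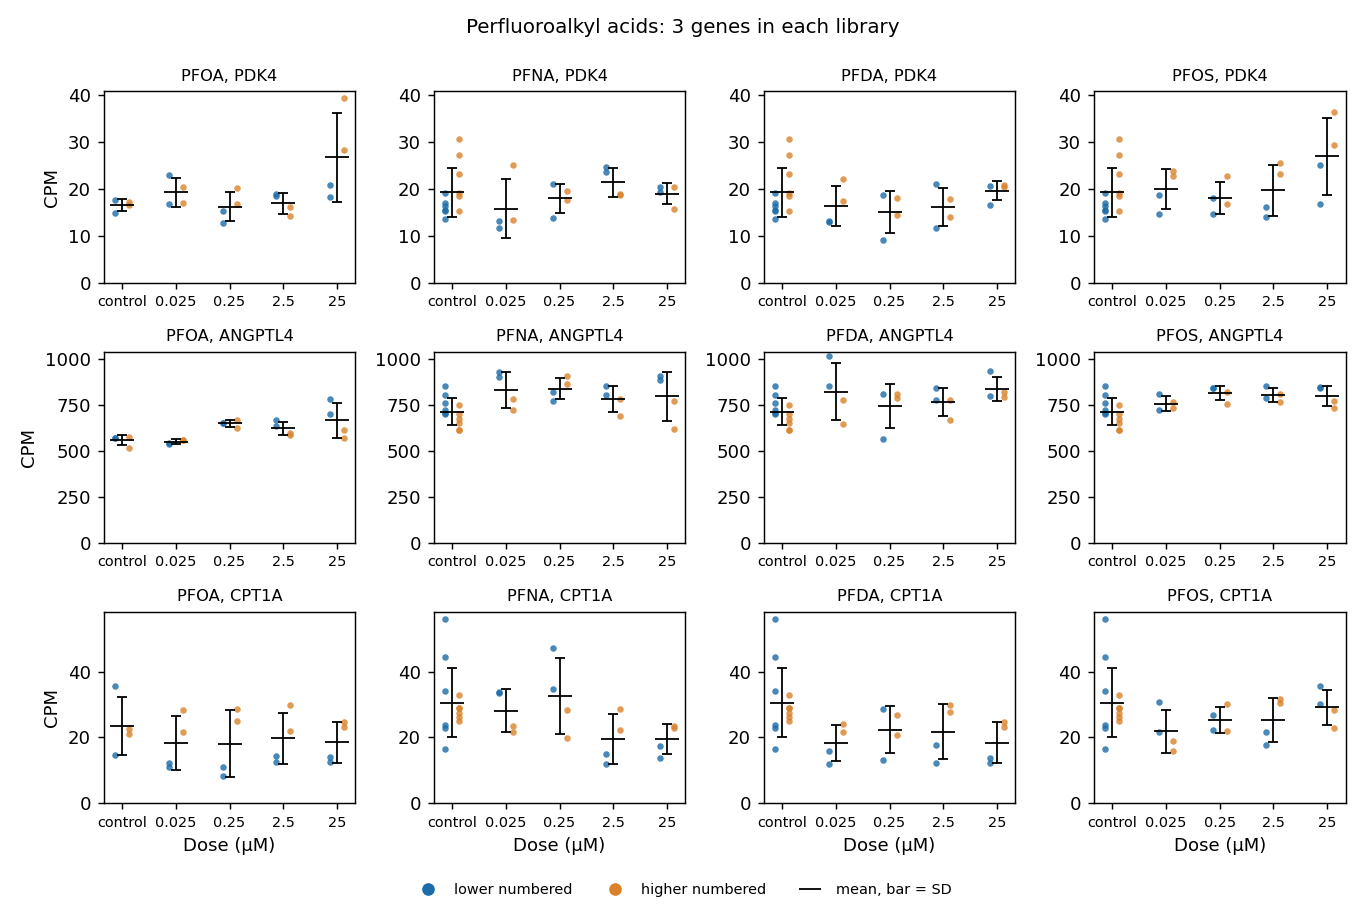
PDK4, ANGPTL4 and CPT1A in CPM for each library of PFOA, PFNA, PFDA and PFOS by dose in µM, with the water controls for PFOA and the DMSO controls for the others; blue points are lower and orange points higher numbered libraries, and the black line and bar are the mean and SD. No group at 25 µM passed the test, and PFOA's PDK4 values of 18.3 to 39.4 CPM lie above its 4 controls.

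Related compounds were compared with each other at 25 µM in 11 pairs. PFNA and PFDA carry longer perfluorinated chains than PFOA, and PFOS ends in a sulfonate in place of a carboxylate. BPA, BPF and BPS are bisphenols, MPB and PPB parabens, and PCB153 and PCB187 chlorinated biphenyls. None of the 88 gene and pair contrasts was called, against 0.00836% of all genes. PFOA differed from PFNA in PDK4 by 0.66 (95% interval 0.09 to 1.22, adjusted p = 0.578) and in PPARA by 0.86 (0.21 to 1.5, adjusted p = 0.481), each taken from its own solvent's controls. PFNA differed from PFOS in PDK4 by -0.53 (-0.94 to -0.11, adjusted p = 0.741). MPB differed from PPB in ANGPTL4 by 0.29 (0.08 to 0.50, adjusted p = 0.926). PCB153 differed from PCB187 in PDK4 by -0.12 (-0.71 to 0.47), and BPA from BPF in PDK4 by -0.31 (-0.94 to 0.32). These intervals do not show that the compounds act alike.

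The remaining chemicals had no call among these genes at any dose. At 25 µM, BPA, BPF, BPS, PPB, phenanthrene, DCB_14, DCP_25, PCB153 and PCB187 were tested on 8 genes each. Among their 5 pairs with an unadjusted p below 0.05 were PDK4 in BPA (-0.52 ± 0.26, adjusted p = 0.786), ANGPTL4 in DCP_25 (0.33 ± 0.13, adjusted p = 0.958) and ANGPTL4 in PCB187 (0.28 ± 0.13, adjusted p = 0.819). The 5 are not read as a result, since the share of all genes at that p is not given here. The median SE over chemicals at 25 µM was 0.25 for PDK4, 0.22 for PPARA and CPT1A, 0.18 for PPARG and 0.17 for PPARD. It was 0.13 for ANGPTL4, 0.08 for ACADVL and 0.07 for HADHA. Small changes were less detectable for the genes with the larger SE. How far counts, depth or the spread between wells set these SEs was not tested.

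The controls themselves moved some of these genes. Water against DMSO controls of the perfluoroalkyl plate differed in 2 of 8 genes, against 4.08% of all genes. ANGPTL4 was 559 ± 28.4 CPM (SD, n = 4) in water and 714 ± 72.7 (SD, n = 12) in DMSO, a log2 difference of -0.35 ± 0.09 (adjusted p = 0.00700). ACADVL was 339 ± 24.1 and 420 ± 30.1 CPM, with -0.31 ± 0.07 (adjusted p = 0.00126). Lower against higher numbered controls differed in 3 of 33 gene and plate pairs, against 2.28%. PDK4 on the bisphenol plate was 26.6 ± 6.23 CPM (SD, n = 8) in lower and 13.2 ± 4.23 CPM (SD, n = 7) in higher numbered controls, a log2 difference of 0.94 ± 0.23 (adjusted p = 0.00934). ANGPTL4 there differed by -0.34 ± 0.07 (adjusted p = 0.00182), and ACADVL on the metal plate by 0.24 ± 0.07 (adjusted p = 0.0352).

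A list of 67 further genes of receptor partners, fatty acid uptake, carnitine transport, beta-oxidation, ketone synthesis, lipid droplets and pyruvate dehydrogenase control was read beside them. The counts that follow are for list genes with a median of at least 10 counts in the controls of the comparison. Scarcer genes may have passed the filter through dosed libraries where they were high. At 25 µM 81 of 989 gene and chemical pairs were called, 19 higher and 62 lower, where 4.85% of all pairs were. That share and the shares of all genes given below cover every gene tested, scarce ones included. They were not cut at 10 counts, so they are not a like base for the list counts. Arsenic had 10 higher and 21 lower of 48, thiram 5 and 23 of 47, and cadmium 1 and 9 of 48. The shares of all genes called were 41.4% for arsenic, 25.9% for thiram and 11% for cadmium. The mitochondrial beta-oxidation list of 13 tested genes fell in 10 for thiram, 7 for arsenic and 5 for cadmium, and rose in none of them. This was 76.9%, 53.8% and 38.5% of the list. Its median log2 differences were -0.53, -0.29 and -0.65, beside -0.11, 0.00 and -1.42 over all genes. HADH, a dehydrogenase of short chains, fell by 1.39 ± 0.14 with arsenic and differed by -1.61 ± 0.40 with cadmium, and ECI1, an isomerase for unsaturated chains, fell by 1.07 ± 0.13 with thiram. The peroxisomal list of 7 genes fell in 6 for thiram and in 3 for arsenic, with 1 higher.

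The lipid droplet and lipolysis list rose in 3 of 6 genes with arsenic (1 lower), in 2 of 5 with thiram (2 lower) and in 1 of 6 with cadmium (0 lower), beside the same shares of all genes. MGLL, the lipase that completes triglyceride breakdown, was 93.2 ± 7.95 CPM (SD, n = 4) with arsenic against 21.2 ± 6.04 CPM (SD, n = 15) in controls, a log2 difference of 2.05 ± 0.17. MGLL also rose with thiram (1.37 ± 0.20), cadmium (2.37 ± 0.44) and copper (0.78 ± 0.18). PNPLA2, the first lipase of that pathway, rose by 1.07 ± 0.12 with arsenic. PLIN5, a lipid droplet coat protein, was 14.9 ± 8.88 CPM (SD, n = 4) with thiram and 0.143 ± 0.304 CPM (SD, n = 15) in controls. It was 31.3 ± 28.5 CPM (SD, n = 2) with cadmium and 0.0488 ± 0.127 CPM (SD, n = 15) in controls. Levels of PLIN5 in controls were near 0, so it is not in the counts above and its fitted fold depends on the prior count. ACSL1, which activates long-chain fatty acids, fell by 2.30 ± 0.30 with thiram and differed by -3.55 ± 0.90 with cadmium, and FABP5, a fatty acid carrier, fell by 1.65 ± 0.16 with arsenic.

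Among receptor partners and cofactors, 3 of 7 genes rose and 2 fell with arsenic, where 41.4% of all genes were called. With thiram 2 of 7 rose (28.6%), near the 25.9% of all genes called. Lead lowered SLC27A2, a fatty acid transporter (-2.33 ± 0.44), and PDK1 (-0.73 ± 0.17), and copper lowered PDK2 (-1.52 ± 0.30) and ECI1 (-0.47 ± 0.11). PDK1 and PDK2 are paralogs of PDK4. Of the list of other receptor targets, FGF21, a secreted metabolic hormone, was the 1 gene tested. It was 7.08 ± 0.573 CPM (SD, n = 4) with 25 µM arsenic and listed at 0 in all 15 controls, so it passed the filter through dosed libraries alone.

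**Figure D5:**
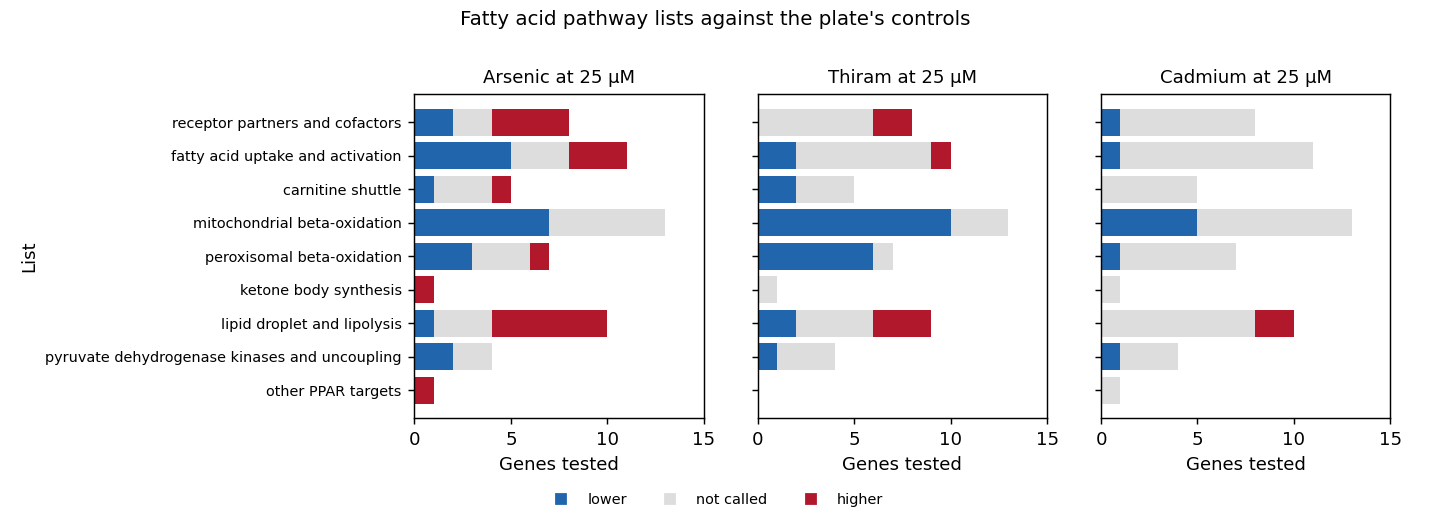
Number of genes tested, those near 0 in controls included, in each fatty acid pathway list (horizontal axis) that were called lower (blue), not called (grey) or called higher (red) at 25 µM arsenic, thiram and cadmium. The mitochondrial beta-oxidation list has 10, 7 and 5 genes lower for thiram, arsenic and cadmium and none higher. Some genes near 0 in controls, such as FGF21 with arsenic, passed the filter through dosed libraries alone. Their calls are not read as a result.

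Patterns over the 332 dosed libraries were described by Pearson's r of log2 CPM centred on each library's own controls, over 7650 genes tested on all plates. Among the genes most like PDK4 were ETNK2 (0.783) and TSC22D3 (0.752). Those most like ANGPTL4 were SLC20A1 (0.718), UHRF1 (0.706) and ISG20L2 (0.701), and those most like CPT1A were TGFBI (0.609), PABPC4 (0.591) and TPT1 (0.568). Among the 8 genes themselves the highest r was 0.433, between PDK4 and HADHA, and PDK4 and ANGPTL4 had -0.128. Libraries share plates, controls, number sets and depth, so these values carry no test.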

How the data were processed

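The authors deposited unscaled read counts for each gene symbol, 1 file without a header per library, with totals that differ between libraries as raw counts do. The submitters' processing notes name FastQC, MultiQC, STAR, featureCounts and GRCh38. No version, annotation or strand setting is given in the sources used here. No molecular identifiers are mentioned, so counts are reads.

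Libraries were grouped by labelled chemical and dose and placed on plates by barcode. Each plate was fitted once with edgeR 4.0.16 in R 4.3.3 (glmQLFit and glmQLFTest, TMM scaling, filterByExpr with a minimum count of 10 and a minimum total of 15), with 1 mean per chemical and dose. Intervals cover 95%. A trend is the log2 change per 10-fold dose over the 4 doses, without controls. CPM uses the TMM library size. The scripts were tested on simulated counts. Alternatives were RLE scaling, no filter, DESeq2 1.42.0, number set and position terms, single libraries left out, dosed group and controls alone, and a replicate block. For dose differences the block was fitted on the metal plate alone, with only the water controls that shared a number with dosed libraries. Dosed libraries with the same number deviated together for copper, lead, mercury and PFOA, where every pair's correlation was over 0.1 (lowest 0.179, 0.398, 0.361 and 0.26), and for no other chemical.

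The genes and lists were chosen with earlier results of these data known. All 9 members are named; of the pathway list, up to 2 genes called higher and 2 called lower with the smallest p, in each of 5 chemicals ranked by their number of pathway calls; and the 3 genes most alike in pattern, with a mean log2 CPM of at least 4. FGF21 was named after its values were seen. Some genes that this rule names are not reported here.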

Additional observations from a re-analysis of the deposited data

Results flagged for a closer look

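25 groups of 4 to 10 libraries were examined for a library far from the rest of its group, which chance gives for about 1 in 20 groups, and 3 values stood apart. PPARA was 22.4 CPM in replicate 2 of arsenic at 25 µM, above the other 3 at 14.1 to 15.2 CPM. ANGPTL4 was 516 CPM in water control 47 of the perfluoroalkyl plate, below the other 3. PLIN2 was 0.475 CPM in water control 39 of that plate, from 7 counts.

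The cadmium library at 25 µM that was set aside for its barcode had 1.28 M reads, a depth that limits its scarce genes. Per plain library total, ANGPTL4 was 722 CPM there, CPT1A 61.5 CPM and HADHA 431 CPM. Each was above the range of the metal plate's water controls (336 to 528, 5.96 to 30.0 and 237 to 356 CPM). The library's barcode was that of the thiram plate, whose DMSO controls held 520 to 827, 13.5 to 51.6 and 231 to 337 CPM. ANGPTL4 lay inside that plate's range, and CPT1A and HADHA lay above theirs. Control CPM use the scaled library size, so the scales differ. The 2 cadmium libraries in the tests had 126 and 179 CPM of ANGPTL4.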

How the results depend on the processing

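The 19 member calls at 25 µM, PLIN2 included, ranged from 15 to 25 over the alternatives that left no replicate out, and from 11 to 17 with 1 replicate of every dosed group left out; 11 came without replicate 2. A number set term kept all 19. The share of all genes called also changes between settings and is not given for each. For DDE at 25 µM it was 7.77% in the report's fit and 25% with the position term. The counts that follow are therefore not read as results about the 9 genes. Calls at 2.5 µM (4 in the report) were 9 with no filter, 7 with DESeq2, 8 with the number set term, 9 and 8 within the lower and higher numbered set, 7 with the DDE position term, and 2 to 5 without 1 replicate. Calls at 0.25 µM (1) were 11, 4, 8, 10, 17 and 3 in the same order, 8 with the 2 groups fitted alone, and 0 to 2 without 1 replicate. Calls at 0.025 µM (0) were 7, 1, 2, 9, 6 and 1 in that order, and 0 to 2 without 1 replicate. Trends (9 with PLIN2) were 4 to 9 without 1 replicate. Perfluoroalkyl calls (0) were 2 with no filter, 2 within the lower and 1 within the higher numbered set. Water against DMSO (2) gave 1 to 2 without single water controls, 1 without control 40 or 47. Lower against higher numbered controls (3) gave 5 with DESeq2, and the pathway list (90, scarce genes included) gave 51 within the higher numbered set. Signs turned for PPARD (-0.22) and PLIN2 (-1.76) with cadmium without replicate 2 (2.42 and 9.53 without replicate 1), and for ANGPTL4 with thiram within the lower numbered set (0.00152). The cause was not tested; fewer libraries or other genes tested are part of the no-filter and number set settings. With the replicate block, member calls at 25 µM were 17, trends 11 and compound pairs 0. The calls at 25 µM came from a fit with only the metal plate's number-matched water controls. The block lost PPARG (-0.43, adjusted p = 0.0986) and ACADVL (0.17, adjusted p = 0.137) with arsenic and ACADVL with cadmium (0.46, adjusted p = 0.0822), whose libraries the numbers do not pair. PLIN2 had too few counts to judge.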
